A study of Rattus norvegicus with 6 samples.

Results

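The enzymes described here write and remove methyl groups on histone lysines and on DNA cytosines, or remove acetyl groups from histones and other proteins. They were taken by symbol: the numbered histone deacetylases (Hdac), the sirtuins Sirt1 to Sirt7, the lysine demethylases (Kdm), the Kmt2 and Setd lysine methyltransferases, the DNA methyltransferases (Dnmt) and the TET dioxygenases. Kdm5c, Kdm5d and Kdm6a were left out by the rule. Setd1a and Setd1b would fall under it but were not found under these symbols, so they were not analysed here. This gave 52 of the 22601 genes in the deposited table. RNA had been sequenced from the ventral hippocampus of 3 aged rats (22 months) and 3 adult rats (4 months), all male Sprague Dawley animals, an outbred laboratory stock, with no transgene or treatment named. They were drawn at random from 10 rats of each age that had been run in the Morris water maze, a test of spatial memory, and each library came from 1 animal. The question asked of the libraries is which of these genes differ in level with age.

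Acetyl groups loosen the hold of histone tails on DNA, and deacetylases take them off. Class I, II and IV enzymes use zinc, while sirtuins use the cofactor NAD and many of them act outside the nucleus. Histone methylation marks active or silent chromatin depending on the lysine, and is set by SET domain enzymes and erased by flavin-dependent or Jumonji demethylases. DNA methyltransferases place 5-methylcytosine and TET enzymes oxidise it. In the hippocampus these enzymes have been studied for their part in memory formation and in ageing.

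No enzyme of these families differed between aged and adult rats past an adjusted p of 0.05. Of the 52 genes, 48 had enough counts to be tested, and 0 of these 48 were called (edgeR's quasi-likelihood test, Benjamini-Hochberg over 14588 genes), where the share of all genes called was also 0%. The smallest adjusted p among the 48 was 1.00, against 0.510 among all genes. The log2 fold change, aged minus adult, was positive for 27 and negative for 21 of the 48. Its median was 0.02, against -0.00 over all genes tested, and the enzymes' interquartile range lay between -0.06 and 0.09, against -0.13 to 0.12 for all genes. All 48 lay within 0.5 on the log2 scale, as did 90.2% of all genes tested and 97.8% of the 4560 genes with a mean of 24.0 to 83.3 CPM (counts scaled to a common library size by TMM), the middle range of the enzymes. The enzymes' median 95% interval reached 0.36 log2 units to either side of the estimate. This interval is not adjusted for the number of genes. A difference of that size in a typical enzyme would therefore not be called with these 6 animals, and larger ones could be missed as well.

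At an unadjusted p under 0.05, 0 enzymes were higher in aged rats, where the share of all genes was 1.18%, and 1, Sirt2, was lower, where the share was 2.27%. In CPM the 3 aged values lay wholly above the 3 adult values for 0 enzymes, beside 3.13% of all genes. They lay wholly below them for 3, Sirt2, Sirt4 and Kdm1a, which is 6.25% of the 48 beside 4.43% of all genes. In the deposited FPKM values, scaled by library total, the ages overlapped for Kdm1a, but not for Sirt2 or Sirt4. Groups of this size cannot go below p = 0.1 in an exact permutation test of single values.

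**Figure D1:**
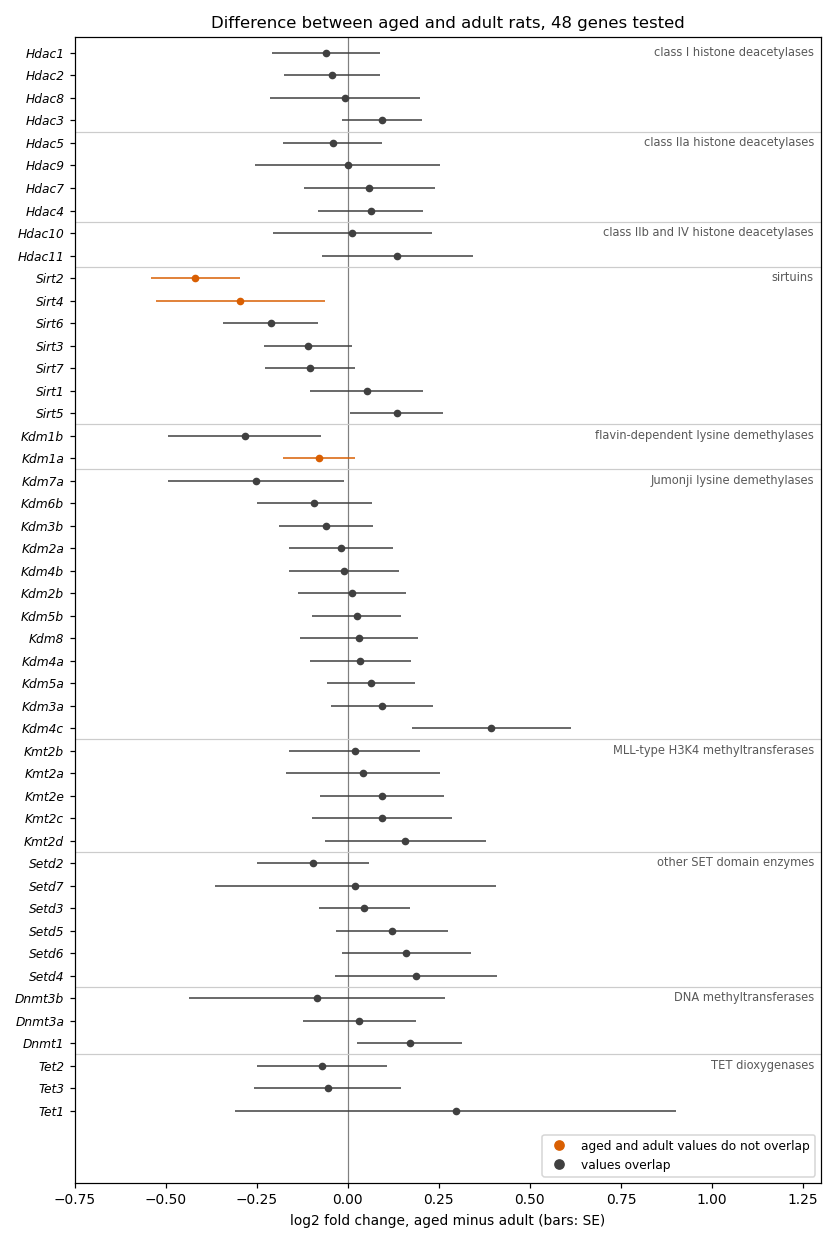
The x axis is the log2 fold change, aged minus adult, for each of the 48 enzyme genes tested, with bars for 1 standard error, and the genes run down the page by enzyme group. Sirt2 is furthest from 0 at -0.42. The 3 genes drawn in orange, Sirt2, Sirt4 and Kdm1a, are those whose aged and adult CPM values do not overlap.

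Library totals lay between 12476758 and 15689921 counts. Adult replicate 1 held choroid plexus transcripts, with Ttr at 2076 CPM there. Liver markers summed to 28.5, 261 and 204 CPM in aged replicates 1 to 3, against 27.3, 531 and 523 CPM in adult replicates 1 to 3. Muscle markers summed to 132, 49.5 and 80.4 CPM in aged rats, against 134, 131 and 379 CPM in adult rats. Marker sums of the tissue's own cells were 8401, 6044 and 6327 CPM for neurons in aged rats, against 6128, 6629 and 6981 CPM in adult rats. For astrocytes they were 4410, 5329 and 4401 CPM, against 4544, 5442 and 4271 CPM. For microglia they were 309.6, 427 and 294 CPM in aged rats, against 335, 329 and 251 CPM in adult rats, and for endothelium 336, 386 and 267 CPM, against 391, 503 and 369.9 CPM. All 8 endothelial markers had lower fitted values in aged rats (median -0.42 on the log2 scale). Of these, 2 had an unadjusted p under 0.05, 2 did not overlap and 0 were called. Of all genes, 2.27% were lower at that p and 4.43% lower without overlap. The tested markers of choroid plexus (6, median -2.53), liver (9, median -1.14) and muscle (7, median -1.42) were all lower too. Among astrocyte markers 6 of 8 were lower (median -0.18). Higher in aged rats were 7 of 8 microglial (median 0.18) and 8 of 10 neuronal markers (median 0.13). At that p, 3 choroid plexus, 1 liver, 3 muscle and 1 astrocyte markers were lower, and 2 microglial markers higher, where the share of all genes was 1.18%. Lower without overlap were 2 choroid plexus, 0 liver, 1 muscle and 1 astrocyte markers. Higher without overlap was 1 microglial marker, beside 3.13% of all genes. In bulk tissue, fewer cells of a type and less RNA per cell cannot be told apart. The part of these other cells in the values of the enzymes was not tested, apart from the oligodendrocyte values set beside Sirt2.

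Levels between genes are compared in FPKM, a deposited count scaled by gene length and library total. Over all 6 libraries the tested enzymes ran from 0.129 FPKM for Tet1 to 99.5 FPKM for Sirt2. The 8 above 40 FPKM were Sirt2, Hdac11, Sirt5, Setd3, Sirt3, Hdac2, Hdac3 and Hdac5. Among the 6 below 1 FPKM were Tet1, Dnmt3b and the 4 genes that were not tested.

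**Figure D2:**
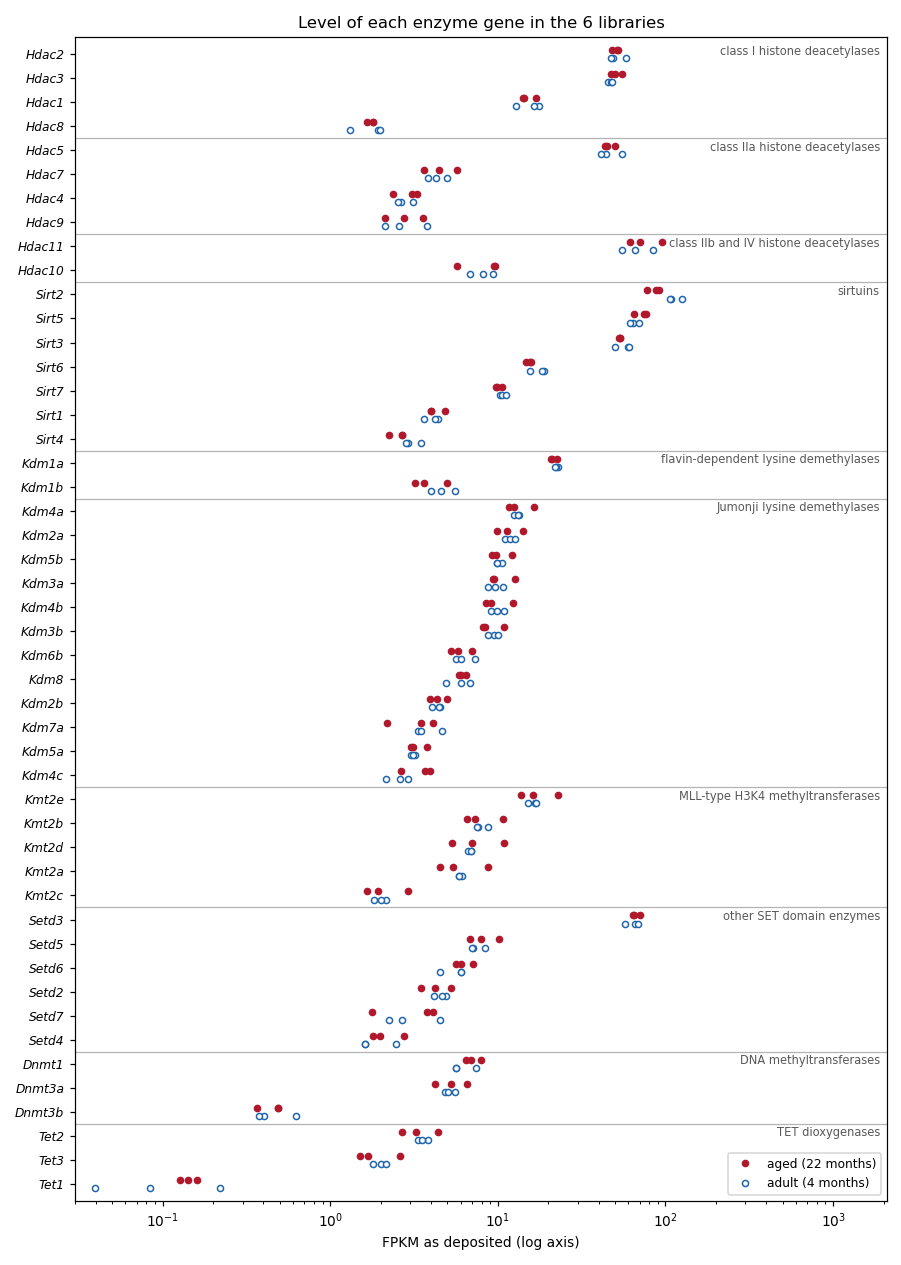
The x axis is the deposited FPKM on a log axis for each tested enzyme gene, with 1 filled point for each aged rat and 1 open point for each adult rat. Sirt2, at the top of the scale, has its 3 aged points below its 3 adult points, while Tet1, at the bottom, has the widest spread among adult rats.

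The class I deacetylases Hdac1, Hdac2, Hdac3 and Hdac8 are mostly nuclear and supply the catalytic subunits of corepressor complexes. Hdac2 and Hdac3 were the most abundant, at 50.8 and 48.7 FPKM over the 6 libraries, and Hdac2 took 42.7% ± 2.06 of the class's summed FPKM in aged rats and 44.3% ± 3.29 in adult rats (SD, n = 3 each). Hdac1, which shares the Sin3, NuRD and CoREST complexes with Hdac2, stood at 29.2, 29.0 and 32.9 CPM in aged rats, against 35.4, 32.9 and 26.6 CPM in adult rats. The ranges overlapped, and the log2 fold change was -0.06 ± 0.15 (SE). Hdac3, the deacetylase of the NCoR and SMRT complexes, stood at 79.6, 90.6 and 79.1 CPM in aged rats and 74.8, 77.3 and 81.6 CPM in adult rats, a log2 fold change of 0.09 ± 0.11 (unadjusted p = 0.421 by edgeR's quasi-likelihood test across all genes). Hdac2 lay between 100.2 and 115 CPM in aged rats and between 102 and 130 CPM in adult rats. Hdac8, which acts on cohesin, lay between 11.9 and 13.6 CPM in aged rats and between 9.83 and 15.1 CPM in adult rats.

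The class IIa enzymes shuttle between cytoplasm and nucleus in response to calcium signals. Hdac5 held 81.6% ± 2.63 of their summed FPKM in aged rats and 82.6% ± 0.396 in adult rats (SD, n = 3 each), with 134 to 160.4 CPM in aged and 137 to 175 CPM in adult rats. Hdac4, needed for memory in mice, had 38.3, 48.8 and 49.8 CPM in aged rats and 41.4, 48.4 and 41.3 CPM in adult rats (log2 fold change 0.06 ± 0.14). Hdac7 had 20.3, 24.3 and 30.0 CPM in aged rats and 23.3, 26.8 and 21.5 CPM in adult rats (log2 fold change 0.06 ± 0.18). The aged and adult values of both genes overlapped. Hdac9 averaged 30.6 ± 8.31 CPM in aged rats and 30.6 ± 8.71 CPM in adult rats (SD, n = 3 each).

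Hdac11, the only class IV enzyme, removes long-chain fatty acyl groups as well as acetyl groups and is abundant in brain. It stood at 181, 239 and 148 CPM in aged rats and 165, 209 and 143 CPM in adult rats. In both ages replicate 2 was highest and replicate 3 lowest, and the log2 fold change of 0.14 ± 0.21 was smaller than its error. Without aged replicate 2 it was -0.06. Hdac10, a polyamine deacetylase of class IIb, had 23.2, 38.3 and 36.4 CPM in aged rats and 32.2, 26.7 and 38.1 CPM in adult rats (log2 fold change 0.01 ± 0.22). Hdac6, the tubulin deacetylase of class IIb, was listed at 0 counts in all 6 libraries. A count of 0 allows up to 3 counts, which is 0.191 to 0.240 CPM in these libraries and covers counting error only. Whether the 0 reflects the level of Hdac6 or how reads were assigned to it was not tested, so it is no measure of low expression.

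The sirtuins had a median log2 fold change of -0.11. Of 7 sirtuins 2 had higher and 5 lower fitted values in aged rats, with Sirt2 the 1 that passed an unadjusted p of 0.05. Leaving out any 1 library left 5 or 6 of the 7 lower. Their summed FPKM was 237, 251 and 242 in aged rats, against 273, 264 and 274 in adult rats. These sums did not overlap, and Sirt2 carried this: without it they were 159, 163 and 151 in aged rats, against 147, 157 and 167 in adult rats, which overlap.

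Sirt2, a cytoplasmic deacetylase of tubulin and other proteins, is known as an abundant protein of oligodendrocytes and the myelin sheath. It stood at 221, 244 and 245 CPM in aged rats, against 349, 296 and 305 CPM in adult rats. Every aged value lay below every adult value, and the means were 237 ± 13.6 CPM in aged and 317 ± 28.8 CPM in adult rats (SD, n = 3 each). The log2 fold change was -0.42 ± 0.12, with a 95% interval of -0.70 to -0.14. Its unadjusted p was 0.00873 and its adjusted p was 1.00 in edgeR's quasi-likelihood test, so it was not called. Leaving out single libraries gave log2 fold changes from -0.47 (without adult replicate 2) to -0.33 (without adult replicate 1). Of the summed FPKM of the sirtuins, Sirt2 took 32.9%, 34.9% and 37.8% in aged rats, against 46.1%, 40.6% and 38.9% in adult rats.

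Markers of mature oligodendrocytes were lower in the same aged rats. All 12 markers fixed for that cell type had negative log2 fold changes (median -0.70, from -0.96 for Cldn11 to -0.41 for Aspa). Of these, 0 were called, and 8 had an unadjusted p under 0.05, where the share of all genes lower at that p was 2.27%. For 6 the aged values lay wholly below the adult ones, beside 4.43% of all genes. The summed level of the 12 markers was 7187, 7523 and 9645 CPM in aged rats, against 18286, 12416 and 12055 CPM in adult rats. The highest sum was that of adult replicate 1, which was also highest for Sirt2 and for choroid plexus transcripts. Mbp, the myelin basic protein of compact myelin, had 4077, 4586 and 5416 CPM in aged rats, against 10951, 6864 and 7379 CPM in adult rats, a log2 fold change of -0.84 ± 0.21. This estimate was further from 0 than that of Sirt2, while the estimate of Aspa was nearer to 0. These differences were not tested. The adjusted p of Mbp was 1.00 in the same edgeR test.

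Set against those markers, Sirt2 stood at 30.8, 32.4 and 25.4 CPM per 1000 marker CPM in aged rats, against 19.1, 23.8 and 25.3 in adult rats. The aged values of this ratio lay above the adult ones, aged replicate 3 by a narrow margin, with means of 29.5 ± 3.63 in aged and 22.7 ± 3.22 in adult rats (SD, n = 3 each). An exact two-sided permutation test gave p = 0.1, the smallest that 3 against 3 allows, and 0.15 adjusted over the 3 such values tested. The other 2 were the CPM of Sirt2 and the same ratio for Hdac11. For the CPM of Sirt2 the exact permutation p of 0.1 followed from groups already seen not to overlap. The Hdac11 ratio was 24.1 ± 8.29 in aged and 12.6 ± 3.96 in adult rats (SD, n = 3 each, exact permutation p = 0.2). The adjustment does not cover the choice of Sirt2 from 48 enzymes, and the markers were already seen to be lower. These p-values are therefore description only. The endothelial markers, with the same median of -0.42 as the estimate of Sirt2, were lower as well, as were the tested choroid plexus, liver and muscle markers. How much of the difference in Sirt2 went with the level of oligodendrocyte, endothelial or these other transcripts was not tested further.

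**Figure D3:**
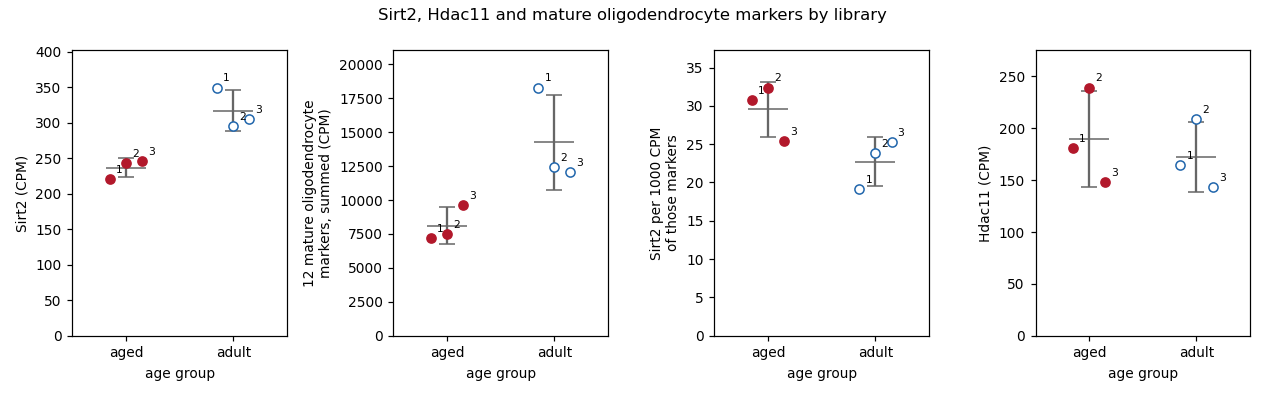
From left to right the panels give, for each of 3 aged and 3 adult rats, the CPM of Sirt2, the summed CPM of 12 mature oligodendrocyte markers, Sirt2 per 1000 CPM of those markers, and the CPM of Hdac11; horizontal bars are means and vertical bars SD, and numbers mark the replicate. The aged points lie below the adult points in the first and second panels and above them in the third, while those of Hdac11 overlap.

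The estimates of the other sirtuins were closer to 0. Sirt4, a mitochondrial sirtuin that acts on glutamate dehydrogenase, was rare, with 6.12, 6.02 and 4.82 CPM in aged rats, against 6.56, 6.26 and 7.998 CPM in adult rats. Its groups did not overlap, but the gap between the nearest animals was small and the log2 fold change of -0.30 ± 0.23 had a 95% interval of -0.83 to 0.24. Sirt6, a nuclear sirtuin that acts in DNA repair and at telomeres, had 33.3, 33.3 and 30.0 CPM in aged rats, against 32.8, 39.4 and 39.9 CPM in adult rats. The log2 fold change of Sirt6 was -0.21 ± 0.13 (unadjusted p = 0.143, edgeR across all genes), and adult replicate 1 lay within the aged range. Sirt1, the nuclear sirtuin best known in ageing research, lay between 18.2 and 21.0 CPM in aged rats and between 16.2 and 19.8 CPM in adult rats. The mitochondrial Sirt3 lay between 75.5 and 80.3 CPM in aged rats and between 73.7 and 92.8 CPM in adult rats, and Sirt5, a mitochondrial desuccinylase, between 109.6 and 134 CPM in aged and between 106 and 124 CPM in adult rats. The nucleolar Sirt7 also overlapped between the ages, with 26.7 to 27.6 CPM in aged and 27.6 to 31.2 CPM in adult rats. Of the tested enzymes Sirt7 varied least in CPM within the aged group, with a coefficient of variation of 1.81% over the 3 rats. In FPKM it did not: it had 10.1 ± 0.474 in aged rats, and Sirt3, at 53.3 ± 0.510, varied less for its level (SD, n = 3 each).

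The flavin-dependent demethylases Kdm1a and Kdm1b remove methyl groups from lysine 4 of histone H3, and Kdm1a does so within the CoREST complex. Kdm1a stood at 65.1, 63.6 and 66.2 CPM in aged rats, against 70.0, 67.1 and 68.8 CPM in adult rats. In CPM the groups did not overlap and both were tight, with coefficients of variation of 2.00% in aged and 2.10% in adult rats. In the deposited FPKM they did overlap, at 21.0, 20.8 and 22.6 in aged rats, against 23.0, 22.2 and 22.0 in adult rats. The log2 fold change was -0.08 ± 0.10 (95% interval -0.31 to 0.15). Kdm1b, which is also known in growing oocytes of mice, had 13.7, 15.2 and 20.2 CPM in aged rats, against 19.1, 16.6 and 24.1 CPM in adult rats. Its ranges overlapped and its log2 fold change was -0.28 ± 0.21.

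The promoters of the enzymes were read from RefSeq, in 300-base windows of the rat build GRCr8 that run from 250 bases before to 50 after the annotated start of each gene, and 43 of the 52 genes had one. These windows were richer in G and C than all 33469 rat promoter windows read, with a median of 62.3% against 51.7%. They held a median of 22 CpG dinucleotides against 7. The 33469 windows were not limited to protein-coding genes or to the genes tested here, while the enzyme genes are all protein-coding. Whether the enzymes differ in this from other protein-coding genes was not tested. The GC box GGGCGG, searched on both strands, was in 30 of the 43 (69.8%), against 33.1% of all windows. The CCAAT box was in 18 (41.9%, against 37.5%), the E-box CACGTG in 6 (14.0%, against 6.4%) and the TATA box TATAAA in 1 (2.3%, against 14.2%). A match of this kind is a description of the letters and not a site. Sirt2 was the furthest from 0 of the enzymes, and Kdm1a the least variable of the 3 whose groups did not overlap in CPM. Their windows are printed 5′ to 3′ on the strand of the gene, with CCAAT and GGGCGG in capitals. They lie at chr1:93181222-93181521 (plus strand) and chr5:154121726-154122025 (minus strand) in GRCr8.
Sirt2: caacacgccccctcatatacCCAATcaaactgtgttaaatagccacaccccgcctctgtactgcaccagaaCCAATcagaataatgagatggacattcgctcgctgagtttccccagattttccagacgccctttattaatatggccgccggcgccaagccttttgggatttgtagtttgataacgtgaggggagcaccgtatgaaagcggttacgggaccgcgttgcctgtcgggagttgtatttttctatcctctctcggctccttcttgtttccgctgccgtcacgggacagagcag
Kdm1a: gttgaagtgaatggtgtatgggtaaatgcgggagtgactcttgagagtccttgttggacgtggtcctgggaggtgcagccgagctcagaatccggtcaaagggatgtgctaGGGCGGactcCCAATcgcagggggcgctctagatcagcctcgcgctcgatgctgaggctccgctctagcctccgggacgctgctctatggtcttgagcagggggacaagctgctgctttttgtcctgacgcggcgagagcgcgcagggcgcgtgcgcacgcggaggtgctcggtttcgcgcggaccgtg
The Sirt2 window held 2 CCAAT boxes, 0 GC boxes, 19 CpG and 51.7% G and C. The Kdm1a window held 1 GC box and, 4 bases after it, 1 CCAAT box, with 28 CpG and 62.7% G and C.

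The Jumonji demethylases use iron and 2-oxoglutarate and cover lysines 4, 9, 27 and 36 of histone H3. Of 14 genes 12 were tested, and 7 had higher and 5 lower fitted values in aged rats, with a median log2 fold change of 0.02. The family's summed FPKM was 92.1 ± 14.4 in aged and 90.1 ± 4.21 in adult rats (SD, n = 3 each). Kdm4c, which acts on H3 lysine 9 and lysine 36, had 15.0, 10.6 and 15.1 CPM in aged rats, against 8.61, 10.4 and 11.996 CPM in adult rats. Aged replicate 2 lay within the adult range, and the log2 fold change was 0.39 ± 0.22 (95% interval -0.11 to 0.90, unadjusted p = 0.108, edgeR across all genes). Without aged replicate 2 its log2 fold change was 0.55. Kdm7a, which acts on H3 lysine 9 and lysine 27, had 32.0, 19.6 and 35.4 CPM in aged rats, against 30.1, 30.8 and 42.9 CPM in adult rats. Aged replicate 2 was the lowest of the 6, and the log2 fold change was -0.25 ± 0.24. The most abundant of the family, Kdm4a, took 14.7% ± 0.548 of its FPKM in aged and 14.5% ± 0.210 in adult rats (SD, n = 3 each). The other Jumonji genes all overlapped between the ages. Among the H3 lysine 36 demethylases, Kdm2a lay between 75.8 and 104 CPM in aged and between 84.6 and 98.9 CPM in adult rats, and Kdm2b between 21.2 and 26.3 CPM in aged and between 21.1 and 24.1 CPM in adult rats. Kdm3a, an H3 lysine 9 demethylase, lay between 45.4 and 59.3 CPM in aged and between 43.9 and 51.6 CPM in adult rats. Its relative Kdm3b lay between 53.6 and 67.5 CPM in aged and between 57.6 and 64.3 CPM in adult rats. These 4 genes differed more among the aged rats than between the ages. Kdm4a lay between 55.2 and 75.3 CPM in aged and between 59.2 and 64.2 CPM in adult rats, and Kdm4b between 76.9 and 105 CPM in aged and between 79.9 and 98.5 CPM in adult rats. Of the H3 lysine 4 demethylases, Kdm5a lay between 34.7 and 40.6 CPM in aged and between 34.1 and 35.7 CPM in adult rats, and Kdm5b between 58.9 and 74.6 CPM in aged and between 62.6 and 66.4 CPM in adult rats. Kdm6b, an H3 lysine 27 demethylase, lay between 32.3 and 40.9 CPM in aged and between 33.9 and 45.3 CPM in adult rats, and Kdm8 between 19.9 and 20.8 CPM in aged and between 16.3 and 22.4 CPM in adult rats. Aged replicate 3 was the highest library for 8 of the 12 tested. Kdm4d and Kdm4dl2 had 0 to 6 counts in every library and were not tested.

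The 5 MLL-type methyltransferases Kmt2a to Kmt2e include the writers of H3 lysine 4 methylation at promoters and enhancers. All 5 had positive log2 fold changes, between 0.02 and 0.16 with a median of 0.09, and 0 passed an unadjusted p of 0.05. Their summed FPKM was 37.1, 32.6 and 56.0 in aged rats, against 38.9, 39.2 and 38.8 in adult rats: the aged rats lay on both sides of a tight adult group, with SDs of 12.4 in aged and 0.231 in adult rats (n = 3 each). All 5 genes were highest in aged replicate 3, and 4 of the 5 were lowest in aged replicate 2. Without aged replicate 3, 0 of the 5 were higher in aged rats and their median log2 fold change was -0.15. Without adult replicate 1 or adult replicate 2, 4 of the 5 were higher.

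Kmt2d, a writer of enhancer methylation, showed this spread. It stood at 140.2, 105 and 203 CPM in aged rats, against 134, 128 and 139 CPM in adult rats, with a log2 fold change of 0.16 ± 0.22 (95% interval -0.35 to 0.67) that was -0.13 without aged replicate 3. Kmt2e, the most abundant of the 5 and thought to lack methyltransferase activity, had 116, 96.7 and 154 CPM in aged rats and 117, 117 and 109.97 CPM in adult rats. Its log2 fold change of 0.09 ± 0.17 was -0.11 without aged replicate 3. Kmt2a, the founding member, had 90.2, 74.3 and 138 CPM in aged rats and 95.5, 99.6 and 99.1 CPM in adult rats, with coefficients of variation of 32.9% in aged and 2.28% in adult rats. Kmt2b lay between 56.5 and 87.8 CPM in aged and between 63.0 and 76.1 CPM in adult rats, and Kmt2c, a close relative of Kmt2d, between 40.3 and 67.8 CPM in aged and between 44.4 and 51.8 CPM in adult rats.

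The same library stood out for long genes in general. Aged replicate 3 was the highest of the 6 libraries for 24 of the 48 enzymes (50%), against 16% of all genes tested. The enzyme genes had a median length of 5356 bases in the deposited table, against 3078.5 over all genes tested. Among the 15 enzymes over 8000 bases aged replicate 3 was highest for 13 (86.7%), against 410 of the 1246 other genes of that length (32.9%). Among the 12 enzymes of up to 3000 bases it was highest for 0, against 8.2% of 7100 genes of that length. The log2 deviation of a gene from its mean over the 6 libraries had a median of 0.19 over the enzymes in aged replicate 3. In aged replicates 1 and 2 this median was -0.04 and -0.07, and in adult replicates 1 to 3 it was -0.06, 0.01 and 0.04.

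Across all genes, the Spearman correlation of that deviation with length was 0.09, -0.28 and 0.34 in aged replicates 1 to 3, and -0.16, 0.16 and -0.13 in adult replicates 1 to 3. Over the 48 enzymes it was -0.20, -0.42 and 0.67 in aged rats, and -0.08, 0.01 and -0.16 in adult rats. These correlations are across genes of 1 library, which are not independent replicates, and each deviation is taken from a mean that the library itself enters. Of the Kmt2 genes 4 exceed 8000 bases, all but Kmt2e, and their median deviation in aged replicate 3 was 0.47, beside 0.14 for the 1246 genes of that length outside the enzymes. In aged replicate 2 these medians were -0.35 for the 4 Kmt2 genes and -0.13 for the other genes. The part of gene length or RNA quality in these values was not tested.

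**Figure D4:**
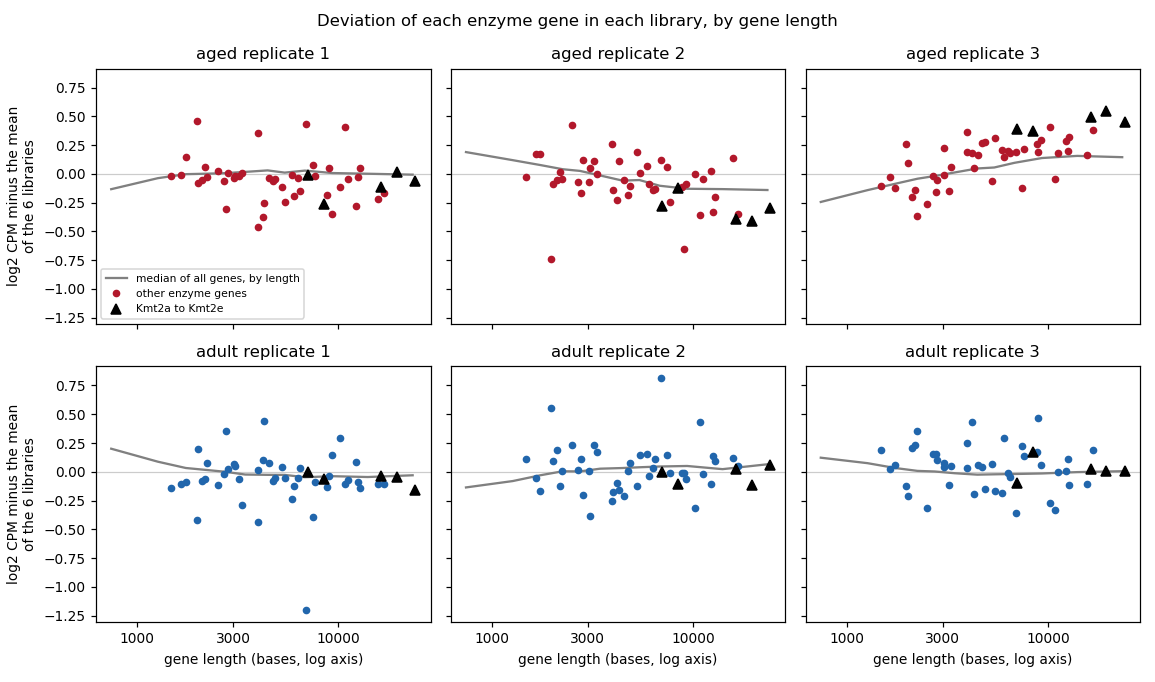
Each panel is 1 library, aged rats in the upper row and adult rats in the lower row, with gene length on a log x axis and, on the y axis, the log2 CPM of each of the 48 enzyme genes minus its mean over the 6 libraries; the grey line is the median of all genes tested by length, and triangles are Kmt2a to Kmt2e. In aged replicate 3 the triangles lie between 0.38 and 0.55 above 0, in aged replicate 2 between 0.12 and 0.41 below it, and in adult rats between -0.16 and 0.17.

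The other SET domain genes act on varied substrates. Setd3, a methyltransferase of actin histidine, was the most abundant and took 73.4% ± 4.34 of their summed FPKM in aged rats and 73.7% ± 2.79 in adult rats (SD, n = 3 each). It lay between 177 and 200.1 CPM in aged rats and between 161 and 198 CPM in adult rats. Of the 6 genes 5 had higher fitted values in aged rats, for a median of 0.08 on the log2 scale, and 3 of the 6 did so without aged replicate 3. Setd4 had 18.9, 20.5 and 27.2 CPM in aged rats and 25.1, 16.5 and 16.9 CPM in adult rats (log2 fold change 0.19 ± 0.22). Setd6, which methylates the NF-κB subunit RelA, had 17.6, 18.6 and 21.0 CPM in aged rats and 18.5, 13.7 and 18.9 CPM in adult rats (log2 fold change 0.16 ± 0.18). Both genes overlapped between the ages. Setd2, which trimethylates H3 lysine 36, lay between 43.9 and 63.5 CPM in aged rats and between 52.1 and 60.9 CPM in adult rats. Setd5 lay between 87.2 and 125 CPM in aged rats and between 90.9 and 107 CPM in adult rats. Setd7 was the most variable enzyme within the aged group, at 3.53 to 8.25 CPM with a coefficient of variation of 39.1%, and had 4.44 to 8.85 CPM in adult rats.

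Among DNA methyltransferases Dnmt1, which copies methylation onto the new strand after replication, stood at 38.9, 41.0 and 45.1 CPM in aged rats, against 33.1, 43.6 and 34.4 CPM in adult rats. The groups overlapped through adult replicate 2, and the log2 fold change was 0.17 ± 0.14 (95% interval -0.16 to 0.50). Dnmt1 took 55.3% ± 2.93 of the family's summed FPKM in aged and 52.3% ± 5.56 in adult rats (SD, n = 3 each), and most of the rest was Dnmt3a. Dnmt3a, the de novo methyltransferase of postnatal neurons, had 52.6, 65.1 and 77.9 CPM in aged rats and 67.9, 59.4 and 64.2 CPM in adult rats. The aged rats spread to both sides of the adult range. Dnmt3b was close to the lower end of what these libraries measure, at 1.60, 2.09 and 2.00 CPM in aged rats and 2.66, 1.71 and 1.67 CPM in adult rats (log2 fold change -0.09 ± 0.35). Dnmt3l, a cofactor with no catalytic activity, had 1 count in adult replicate 3 and 0 in the other libraries.

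The TET enzymes oxidise 5-methylcytosine, the first step of active DNA demethylation. Tet2 took 62.4% ± 3.76 of their summed FPKM in aged and 62.9% ± 4.09 in adult rats (SD, n = 3 each). It had 25.3, 30.3 and 39.6 CPM in aged rats and 35.6, 30.8 and 33.7 CPM in adult rats, with a log2 fold change of -0.07 ± 0.18 (95% interval -0.48 to 0.34). Tet3 had 29.0, 25.5 and 42.4 CPM in aged rats and 30.3, 33.6 and 37.1 CPM in adult rats. For both genes the range of the aged values enclosed that of the adult ones, and aged replicate 3 was highest. Tet1 was the rarest enzyme tested, at 1.13, 0.884 and 0.939 CPM in aged rats and 0.273, 1.52 and 0.600 CPM in adult rats. Its coefficient of variation of 80.9% in adult rats was the largest of the enzymes, and its log2 fold change of 0.30 ± 0.61 had a 95% interval of -1.10 to 1.69.

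Partners of these enzymes were read in 6 lists with 122 genes tested, of which 0 were called; 65 had higher and 57 lower fitted values in aged rats. The medians of the 6 lists lay between -0.02 and 0.03 on the log2 scale. Histone acetyltransferases, which oppose the deacetylases, had 7 higher and 8 lower of 15. Other histone and arginine methyltransferases had 20 higher and 8 lower of 28, with a median log2 fold change of 0.03. Subunits of deacetylase corepressor complexes had 11 higher and 16 lower of 27. COMPASS and Polycomb subunits had 12 higher and 7 lower of 19. Readers of methylated CpG and partners of DNA demethylation had 6 higher and 8 lower of 14, and genes of NAD and S-adenosylmethionine supply, the cofactors of sirtuins and methyltransferases, had 9 higher and 10 lower of 19. In the 6 lists, 2 genes (1.64%) had an unadjusted p under 0.05, both higher in aged rats, a share near the 1.18% of all genes. The groups did not overlap for 7 that were higher (5.74%, beside 3.13% of all genes) and 2 that were lower (1.64%, beside 4.43%).

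Those 2 were Brms1 and Uhrf1. Brms1, a subunit of the Sin3 corepressor complex, had 10.7, 13.1 and 4.32 CPM in aged rats, against 4.10, 0.759 and 0.666 CPM in adult rats. Its aged replicate 3 and adult replicate 1 nearly met, and the log2 fold change was 2.35 ± 0.73 (unadjusted p = 0.0119, adjusted p = 1.00, edgeR). Uhrf1, which guides Dnmt1 to newly copied DNA, had 7.59, 7.55 and 10.45 CPM in aged rats, against 6.56, 5.06 and 5.20 CPM in adult rats. The groups did not overlap, and the log2 fold change was 0.61 ± 0.24 (unadjusted p = 0.0357, adjusted p = 1.00, edgeR).

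In the annotation of GRCr8, 24 of the 52 genes overlap another annotated gene, among them Sirt2, Sirt4, Hdac11 and Kmt2d. Whether the deposited counts used strand is not given in the sources used here, so the values of these 24 may hold reads of the overlapping gene.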

How the data were processed

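The data are RNA-seq libraries of ventral hippocampus from 6 male rats, 3 aged and 3 adult, each library from a separate animal. The authors deposited raw counts per gene symbol and FPKM values, and both tables hold the same measurement: an FPKM equals its count over the product of a constant length per gene and the library total, which also gave the gene lengths used here. The genome build was Rnor_6.0 (per the submitters' processing notes). For the aligner, counter, gene models and strand setting, the names are not given in the sources used. Every library column was mapped by its name to a sample.

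Counts were filtered with filterByExpr, scaled by TMM and tested for aged minus adult with edgeR's quasi-likelihood F test (edgeR 4.0.16, R 4.3.3). The test was two-sided, p-values were adjusted by Benjamini-Hochberg over the 14588 genes tested, and a gene was called where the adjusted p was under 0.05. Standard errors and 95% intervals of log2 fold changes come from that fit, and CPM values are scaled by TMM. Overlap of aged and adult values was read in these CPM values unless FPKM is named. The scripts were tested on simulated counts. Other settings were RLE and library size scaling, no filter, a minimum of 1 CPM in 3 libraries, limma-voom (limma 3.58.1), DESeq2 1.42.0, limma on log2 FPKM with a pseudocount of 1 or 0.1, the replicate number as a block, and leaving out each library. Promoter sequences and overlapping genes came from RefSeq's annotation of GRCr8, in which all 52 symbols were found. Figures were drawn with matplotlib 3.10.9.

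The enzymes, the lists and the tests were chosen with earlier results of these data known. Differences are given for enzymes with an unadjusted p under 0.05 or with groups that do not overlap, and for the 2 with the smallest p in each enzyme group; of each other list, for at most 3 genes with an unadjusted p under 0.05. The other enzymes are given by level or range, and Kmt2a, Dnmt3a and Tet3 were chosen for values per rat after those were seen.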

Additional observations from a re-analysis of the deposited data

How the results depend on the processing

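Under all 15 alternatives 0 enzymes were called and 1, Sirt2, stayed lower at an unadjusted p under 0.05. The unadjusted p of Sirt2 lay between 0.00112 (DESeq2, adjusted p 0.2502) and 0.0427. Over all genes, 31 were called by DESeq2, and 0 to 1 when 1 library was left out (1 without adult replicate 1, 2 or 3), against 0 by edgeR, which had 503 genes at an unadjusted p under 0.05. Between 0 and 1 enzymes were higher at that p when 1 library was left out: Kdm4c was, without aged replicate 2. The median log2 fold change of the enzymes was 0.02, and lay between -0.087 (without aged replicate 3) and 0.088 when 1 library was left out. Without aged replicate 3, 15 enzymes were higher and 33 lower in aged rats, against 27 and 21 with it.

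Of 314 alternative values of the 21 enzymes named with differences, 298 kept their direction and side of the threshold and 16 turned in direction. Hdac10 turned with limma-voom (-0.011) and with the replicate block (-0.0068). The rest turned when 1 library was left out, over ranges of -0.16 to 0.041 for Hdac1, -0.0062 to 0.19 for Hdac4, -0.10 to 0.20 for Hdac7, -0.11 to 0.23 for Hdac10, -0.062 to 0.30 for Hdac11, -0.13 to 0.37 for Kmt2d, -0.11 to 0.25 for Kmt2e, -0.19 to 0.18 for Dnmt3b, -0.10 to 1.16 for Tet1 and -0.26 to 0.086 for Tet2. The cause was not tested.

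Deviations from the group means had correlations of -0.02, -0.06 and 0.09 between the libraries of replicate numbers 1 to 3. Libraries of different numbers were not compared. Liver markers were lowest in replicate 1 of both ages (28.5 CPM in aged and 27.3 CPM in adult rats). Whether the number marks a shared order of handling was not tested. With the replicate block, 0 genes were called, the enzymes' median was 0.0098 and Sirt2 had a log2 fold change of -0.42 (unadjusted p = 0.0355 by edgeR). Of the 5 Kmt2 genes 3 were then higher and 2 lower in aged rats. Library size scaling moved the median of all genes to 0.01, the most of any scaling. Tet1 had the fewest counts of the enzymes tested, 4 to 24 in a library.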
